A study of Mus musculus with 3 samples.

Results

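Notch pathway and basic helix-loop-helix (bHLH) factor genes were read in the neural retina of mice without Rp1, which encodes a protein of photoreceptor microtubules. Members were taken by gene symbol: probe sets with a single symbol beginning with the names of the Notch receptors, their ligands, processing enzymes and nuclear partners, or of the Hes, Hey, proneural, Id and Tcf families, together with a few named mesodermal factors. Neurod1 was left out. The rule gave 55 genes with 67 probe sets, out of 8251 genes named singly and 12422 probe sets in all for mouse transcripts on the Affymetrix U74Av2 array. The prefixes Maml and Olig gave no member. Symbols rather than sequence made the choice, so it also took in Jagn1, an endoplasmic reticulum protein, and Hesx1, a homeobox repressor. Tcf7l1, Tcf7l2, Tcf19, Tcf20 and Tcf25 were likewise taken by name only.

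The study consisted of 3 arrays, each hybridised with RNA of pooled neural retinas from 3 to 4 animals. All animals were described as Rp1-/- on a mixed 129/SvEv and C57BL/6 background, at postnatal day 10, with tissue taken between 1 and 2 pm. For pool 1 the genotype rests on the description, since only the titles of pools 2 and 3 carry an rp1 tag. The 3 pools form 1 group with no control genotype, so every comparison below is between pools of mutant retinas. Nothing in the labels tells whether animals of different pools were littermates, so how independent the pools are is not known. Each pool was read on 1 array, so technical and biological spread between pools cannot be told apart.

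Notch signalling works between neighbouring cells. A Delta or Jagged ligand on one cell binds a Notch receptor on the next, ADAM metalloproteases and the gamma-secretase complex then cut the receptor, and its freed intracellular part joins the DNA-binding protein Rbpj to switch on Hes and Hey genes. Hes and Hey proteins are bHLH repressors that hold back proneural bHLH activators such as the Neurog, Atoh and Neurod factors, which act as dimers with the E proteins Tcf3, Tcf4 and Tcf12. Id proteins have the dimerisation region but no DNA-binding region, and sequester E proteins. In the developing retina this system keeps progenitors dividing and divides their progeny into neurons and Müller glia. By the age studied here most mouse retinal neurons have been born.

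The start-site regions of 6 members are shown because these genes mark the patterns described below: Notch1, Hes5 and Hes6 were highest in pool 1, Id2 was highest in pool 2, and Neurod2 and Myog were among the members with the widest range. Each sequence, from RefSeq on build GRCm38.p6, runs 5′ to 3′ on the gene's strand from 250 bases before to 50 bases after the start. Capitals mark matches to the Rbpj core TGGGAA on either strand and to the E-box CANNTG, the bHLH recognition sequence, which reads the same on both strands. The regions lie at chr2:26503773-26504072 (minus strand) for Notch1, chr4:154960673-154960972 (plus strand) for Hes5, chr1:91413989-91414288 (minus strand) for Hes6, chr12:25096043-25096342 (minus strand) for Id2, chr11:98329596-98329895 (minus strand) for Neurod2 and chr1:134289754-134290053 (plus strand) for Myog.
Notch1: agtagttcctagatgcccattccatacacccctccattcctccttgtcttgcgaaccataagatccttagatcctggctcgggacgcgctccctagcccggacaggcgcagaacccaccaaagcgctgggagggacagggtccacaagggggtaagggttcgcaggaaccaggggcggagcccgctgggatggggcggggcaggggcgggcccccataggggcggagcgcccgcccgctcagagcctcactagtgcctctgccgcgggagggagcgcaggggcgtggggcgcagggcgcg
Hes5: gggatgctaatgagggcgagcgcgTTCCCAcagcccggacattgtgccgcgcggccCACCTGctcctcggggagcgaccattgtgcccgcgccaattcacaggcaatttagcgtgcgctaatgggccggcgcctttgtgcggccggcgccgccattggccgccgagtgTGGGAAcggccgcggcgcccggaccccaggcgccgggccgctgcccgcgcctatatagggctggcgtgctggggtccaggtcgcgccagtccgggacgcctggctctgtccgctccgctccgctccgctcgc
Hes6: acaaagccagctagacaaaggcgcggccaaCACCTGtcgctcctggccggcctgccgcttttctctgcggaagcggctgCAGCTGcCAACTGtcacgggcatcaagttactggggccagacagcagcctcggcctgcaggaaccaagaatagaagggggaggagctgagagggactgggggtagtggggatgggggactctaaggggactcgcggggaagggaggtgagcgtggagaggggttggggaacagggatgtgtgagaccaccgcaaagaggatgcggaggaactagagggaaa
Id2: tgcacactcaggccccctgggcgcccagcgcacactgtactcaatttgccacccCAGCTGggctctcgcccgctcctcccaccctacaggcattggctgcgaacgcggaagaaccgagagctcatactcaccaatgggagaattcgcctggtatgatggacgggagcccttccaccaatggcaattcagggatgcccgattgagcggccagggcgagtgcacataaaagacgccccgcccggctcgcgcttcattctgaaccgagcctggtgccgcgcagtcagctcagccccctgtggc
Neurod2: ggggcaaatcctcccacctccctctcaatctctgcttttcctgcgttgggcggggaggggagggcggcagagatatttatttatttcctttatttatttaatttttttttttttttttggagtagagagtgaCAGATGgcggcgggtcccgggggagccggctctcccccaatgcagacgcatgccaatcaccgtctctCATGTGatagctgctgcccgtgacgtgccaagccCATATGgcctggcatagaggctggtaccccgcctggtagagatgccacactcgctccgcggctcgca
Myog: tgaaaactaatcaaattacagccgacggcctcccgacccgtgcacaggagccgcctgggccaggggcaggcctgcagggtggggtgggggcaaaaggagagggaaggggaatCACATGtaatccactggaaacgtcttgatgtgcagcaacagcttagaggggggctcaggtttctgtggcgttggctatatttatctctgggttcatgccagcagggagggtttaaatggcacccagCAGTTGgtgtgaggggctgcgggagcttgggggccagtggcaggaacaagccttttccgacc

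Hes5, a textbook target of Notch, held 2 matches to the Rbpj core, one on each strand, and 1 E-box. Hes6 held 3 E-boxes and Neurod2 held 3, while Myog held 2 and Id2 held 1, and these 4 regions had no Rbpj core. Hes6 has another listed start-site region, at chr1:91413173-91413472, which held 1 E-box and no Rbpj core. Neither motif was found in the Notch1 window. No match of one motif overlapped a match of the other in the regions shown. Over the 57 start-site regions listed for 44 of the 55 member genes, 14 (24.6%) held the Rbpj core and 38 (66.7%) held an E-box, against 25.6% and 72.3% of the 32851 regions listed for all mouse genes. The members' shares were thus near those of all genes.

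**Figure D1:**
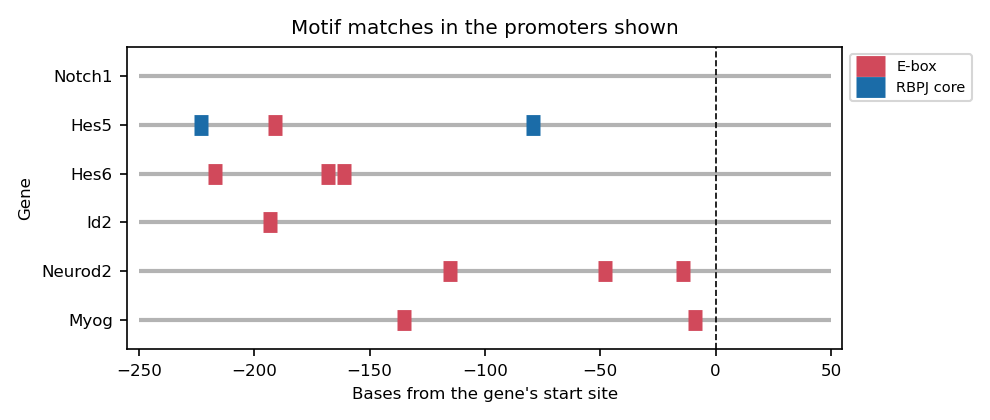
Positions of matches to the Rbpj core (blue) and the E-box (red) in the 6 start-site regions shown, in bases from the gene's start site (dashed line). Hes5 carries the 2 Rbpj core matches of the set, and the Notch1 window carries no match to either motif.

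Signals are intensities on a linear scale that had been scaled alike for all arrays, and each pool's background floor was the 90th percentile of 19 bacterial and yeast control probe sets. The floors were 100.5, 124.8 and 120.4 in pools 1, 2 and 3, and between 65.5% and 69.7% of probe sets lay above them. All 6 rod markers were above the floor on all arrays, and all 6 were highest in pool 2. RNA integrity, read as the Actb signal at the 3' end over that at the 5' end, was 1.1, 1.4 and 1.63 in pools 1, 2 and 3. The same ratio for Gapdh was 0.825, 0.904 and 0.75, so the controls did not place the pools in the same order. Among the marker lists read, lens transcripts had the highest median SD between pools, with a summed signal of 7 lens markers of 59420.6, 15321 and 135347.7 in the same order. In such pooled tissue, fewer cells of a type and less RNA per cell cannot be told apart. Signals of different probe sets are not compared with each other, since each set binds its target with its own strength. Sums over a marker list are read only between pools. They lean towards the list's brightest sets and are not a measure of cell content.

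Members lay above the floor about as often as probe sets in general. Of the 67 probe sets, 40 were above the floor on all arrays (59.7%, against 57.9% of all probe sets) and 13 were above it on none (19.4%, against 23.3%). A probe set is called measured where its mean signal exceeded the mean floor of 115.2, which held for 50 of 67 members (74.6%, against 67% of all probe sets). These were sets of 41 genes. The members nearest the limit were Ascl2, with a mean of 114.3 just below it, and a Notch2 set with a mean of 120.3 just above it.

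No member passed the test for varying between pools by more than probe sets of like signal. The test was limma's fit of residual variances over all 8327 measured probe sets with Benjamini-Hochberg adjustment. It called 0 of 50 measured members and 0.216% of all measured probe sets, and the lowest adjusted p of a member was 0.587. At an unadjusted p under 0.05 there were 9 of 50 members (18%), against 5.34% of all measured probe sets. The same 9 probe sets had a range of more than 2-fold between pools, against 13.2% of all measured sets: those of Notch2, Neurod2, Id2, Tcf12, Tcf4, Myog, Tcf25 and both sets of Tcf7l1. The dimmer Tcf7l1 set, which gave the lowest adjusted p, counts as measured only through pool 1. A wide range follows from the filter for that set. The median SD of log2 signal was 0.346 for measured members and 0.268 for all measured probe sets. Without pool 1, 6 of 48 measured members (12.5%) ranged over 2-fold, against 5.24% of all measured sets. Without pool 2 it was 3 (6%), against 7.04%. Without pool 3 it was 5 (10%), against 6.37%. In each case the range then rests on a single pair of pools.

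**Figure D2:**
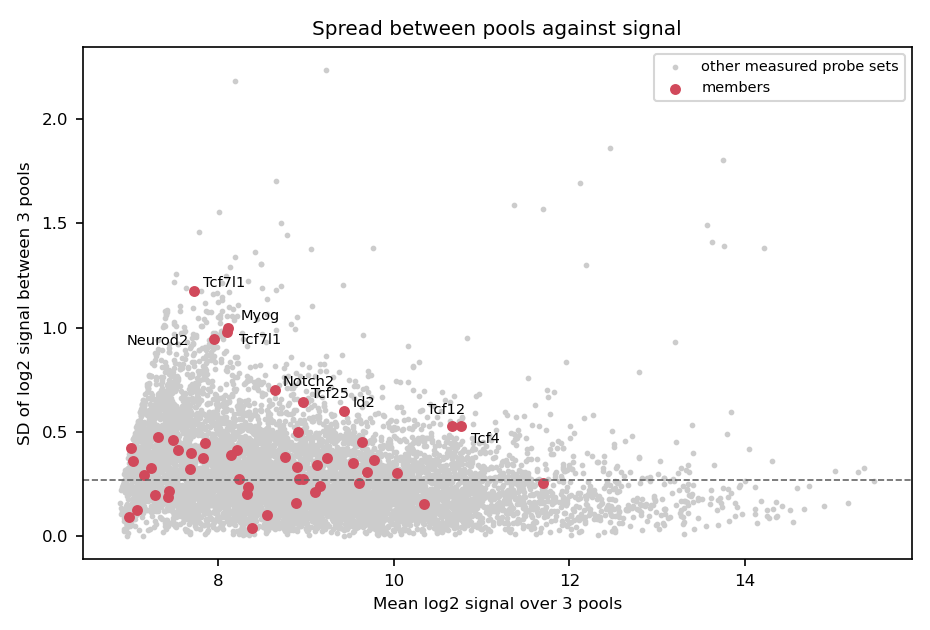
SD of log2 signal between the 3 pools against mean log2 signal, for measured members (red) and the other measured probe sets (grey), with the median of the latter as a dashed line. The named sets are the 9 members with a range of more than 2-fold, and none of them passed the test of variability.

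Among the ligands, Dll1, a Delta ligand of retinal progenitors, was steady across the pools. Its signals were 404.6, 351 and 381.4 in pools 1, 2 and 3, an SD of 26.9 around a mean of 379.0 (n = 3), and the range was 1.15-fold. Dll1 had another probe set, of the r class, with signals under all 3 floors. Jag2, a Jagged ligand, was also under the floor in all pools, at 100.4, 42.3 and 86.2. An r, f or s in the name of a set marks probes chosen under relaxed rules or able to bind related transcripts.

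All 4 Notch receptor genes were measured, and their orders across pools differed. Notch1, the main receptor of retinal progenitors, had signals of 1120.3, 742.4 and 606.3 in pools 1, 2 and 3. Its other probe set, of the r class, kept that order at 283.8, 188 and 167.7. Pool 1 was thus the highest by both sets, with ranges of 1.85-fold and 1.69-fold, and neither passed (limma, adjusted p = 0.987 and 0.991). Notch2 was instead lowest in pool 2, at 458.8, 234.2 and 600.4, a range of 2.56-fold with an unadjusted p of 0.0285 (limma, adjusted p = 0.832). A dimmer Notch2 set exceeded the floor only in pool 1 (136.4, 104.5 and 120) and did not show that gap. Notch3, known from vascular mural cells, had the same order of pools as the brighter Notch2 set, at 294.8, 223.5 and 397 (limma, adjusted p = 0.987). Notch4, an endothelial receptor, was near the floor by both its sets, at 156.1, 166 and 201.1 and at 88.9, 136 and 165.5. In the endothelial marker list 6 of 7 markers were measured, with summed signals of 1710.9, 1781.9 and 2137.7, and Tek was under the mean floor. The measured markers differed in order. While 4 were highest in pool 3, Tie1 was highest in pool 1 (210.8, 123.8 and 118.3) and Cdh5 in pool 2 (113.2, 173.7 and 96.3). The list holds no marker of mural cells. The part of endothelial or mural cells in the receptor signals was not tested.

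The fringe enzymes add sugars to Notch and tune its response to Delta and Jagged. Rfng had 1359.1, 1149.2 and 1408.1 in pools 1, 2 and 3, and Mfng had 695.7, 512.2 and 530.5. Rfng differed by at most 1.23-fold between pools and Mfng by 1.36-fold. Lfng, the fringe enzyme best known from segmentation, exceeded the floor only in pool 1, at 186.2 against 14.6 and 77.4, and was not measured by its mean.

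The measured protease and Numb sets showed ranges under 2-fold. Adam10, the metalloprotease that makes the first activating cut after ligand binding, had 522, 407.8 and 591.3 in pools 1, 2 and 3 by its brighter set. Its other set gave 393.5, 290.6 and 302.4, so that pool 2 was lowest by both while the highest pool differed. Adam17, a related protease, exceeded the floor only in pool 3 (11.9, 27.8 and 152.9) and was not measured by its mean.

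Both gamma-secretase members were highest in pool 2. Aph1a, a further subunit that lay outside the membership rule, was lowest there, at 395.8, 335.4 and 344.3 in pools 1, 2 and 3. Psen2, a presenilin and so a catalytic subunit, had 259.4, 373.2 and 284.8, from an s-class set. Psenen, the subunit also called PEN-2, had 642.2, 986.9 and 652.6, with pools 1 and 3 nearly level. The ranges were 1.44-fold and 1.54-fold, and neither set passed (limma, adjusted p = 0.991 and 0.987). Numb, an endocytic adaptor that opposes Notch, went the other way, with pool 2 lowest by both sets. Its signals were 283.4, 217.7 and 374.3 by the brighter set, of the r class, and 269.3, 162 and 282.8 by the other (limma, adjusted p = 0.987 for both).

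Rbpj, the DNA-binding partner of the Notch intracellular domain, had 533.5, 470.1 and 427.6 in pools 1, 2 and 3. That is a range of 1.25-fold, within the spread of sets of like signal. Rbpjl, its paralogue of the pancreas, lay near the floor at 130.2, 120.2 and 181.5, and under it in pool 2.

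The Hes genes, the repressors downstream of Notch, were highest in pool 1 by each of their 4 measured probe sets. Hes1, the principal Hes factor of retinal progenitors, had 737, 480.5 and 499.1 in pools 1, 2 and 3. Hes5 had 307.2, 205.2 and 189.7. Pools 2 and 3 lay close together for both genes, and pool 1 stood above them by 1.53-fold and 1.62-fold over the lowest. Hes6, a Hes relative that antagonises Hes1, had 1168, 724.6 and 792.8, a range of 1.61-fold. Hes2 was dimmer, at 178, 135.5 and 156. None of the 4 passed (limma, adjusted p = 0.987 for Hes1 and Hes6, 0.991 for Hes5 and 0.996 for Hes2). The other Hes5 set exceeded the floor only in pool 3 (43.6, 19.9 and 131.8) and Hes3 was under it in all pools.

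Hey1, a repressor of the Hey family, did not single out pool 1, at 599.4, 466.9 and 604 in pools 1, 2 and 3. Bhlhe40, a repressor that also acts in the circadian clock, was highest in pool 3, at 140, 124.9 and 232.6, with pool 2 at its floor. The 6 measured repressor sets had median log2 differences, with pool 1 taken as the first term, of 0.49 against pool 2 and 0.37 against pool 3, where all measured probe sets had -0.01 and -0.01. Markers of progenitors and dividing cells, beside which Notch and Hes genes are known to be expressed, gave a mixed picture. Of 8 such markers 5 were measured, with summed signals of 3818.6, 3303 and 3459.8, and Mki67, Top2a and Fgf15 were under the mean floor. Ccnd1, the cyclin of retinal progenitors, was highest in pool 1 (1210, 641.7 and 819.3), while Pcna, a replication factor, was lowest there (777.4, 1070.5 and 878.8). Blood markers, 4 of 4 measured, were highest in pool 1 for 3 and in pool 3 for 1. Their summed signals were 20589.1, 12811.7 and 10724.8 in pools 1, 2 and 3. The part of progenitors, dividing cells and blood in the Hes and Notch1 signals was not tested.

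Müller glia, which keep Hes1 and Hes5 after progenitors are gone, did not show a single order of pools either. Of 6 Müller glia markers with a probe set, 5 were measured, with sums of 20073.6, 18029.3 and 19556.7, and Vim was under the floor in all pools. Rlbp1, the retinal-binding protein of these cells, was lowest in pool 1 (2014.4, 2832 and 3172.5), and Dkk3 was highest there (3511.3, 2293.8 and 2974.6). Their part in the Hes signals was not tested.

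**Figure D3:**
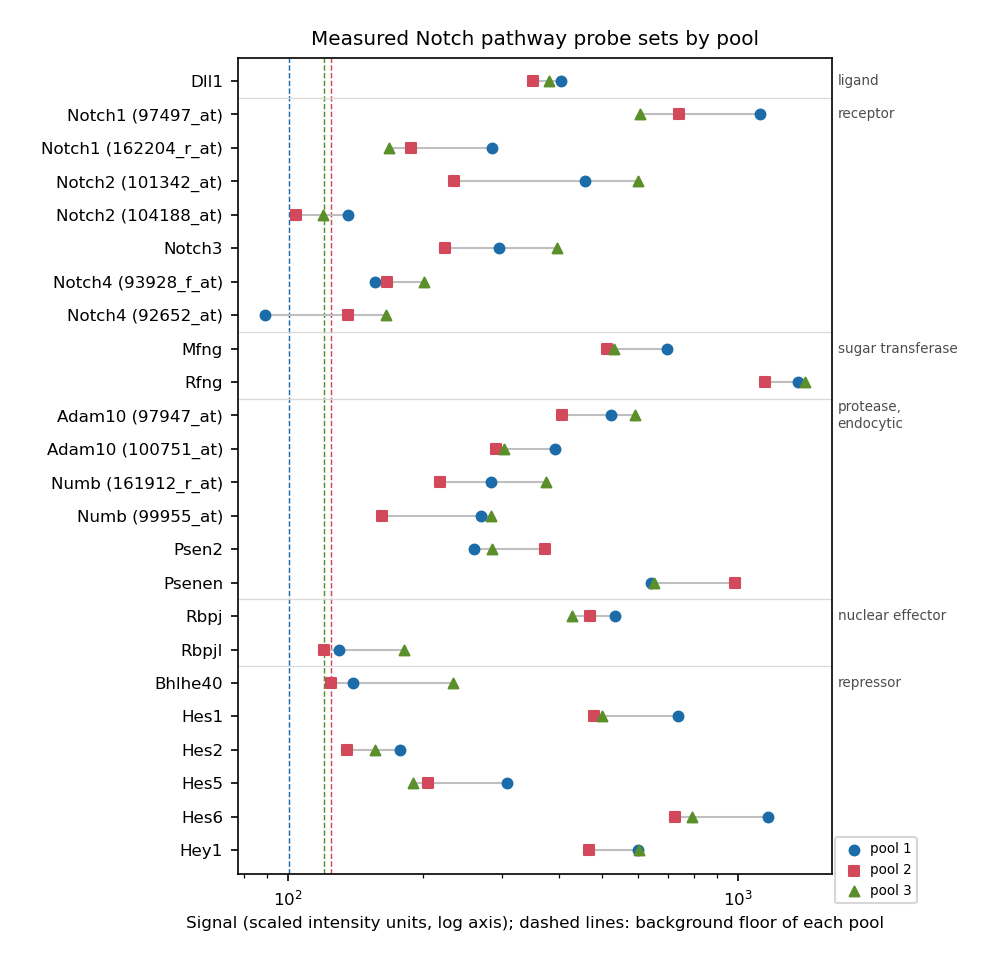
Signal of each measured Notch pathway probe set in pools 1 (blue circles), 2 (red squares) and 3 (green triangles), on a log axis in scaled intensity units, with the floor of each pool as a dashed line and a grey bar from the lowest to the highest pool. Both Notch1 sets and the Hes1, Hes2, Hes5 and Hes6 sets have pool 1 at the right, while the Numb sets have pool 2 at the left.

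Of the 9 proneural genes, 3 were measured. Neurod4, also called Math3, which acts in amacrine and bipolar cells, had 3922.4, 2760.5 and 3364 in pools 1, 2 and 3, a mean of 3349 with an SD of 581 (n = 3). Neurog2, a factor of neurogenic progenitors, had 260.5, 159.7 and 158.1, with pools 2 and 3 level. Both were highest in pool 1, by 1.42-fold and 1.65-fold over the lowest pool, without passing the test (limma, adjusted p = 0.987 and 0.988).

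Neurod2, known from cortical and hippocampal neurons, had the widest range of the proneural group. Its signals were 431.3, 295.6 and 97.6, under the floor in pool 3, so that pool 1 was at least 3.58-fold above pool 3 (limma, unadjusted p = 0.0182, adjusted p = 0.76). Ascl2, a factor of the placenta, exceeded the floor only in pool 2 (100.2, 191 and 51.7). The remaining members of the group were under the floor on every array: Atoh1, known from hair cells, Atoh7, which confers competence to form ganglion cells, Neurod6, Neurog1 by both its sets, and the endocrine factor Neurog3. For Atoh7, whose known role is in early retinal neurogenesis, the signals were 38.6, 26.3 and 87.5.

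Amacrine and bipolar markers are set beside Neurod4, since these cells are known to use it. The 4 measured of 5 amacrine markers summed to 9416.7, 9662.7 and 10596.6 in pools 1, 2 and 3, with Gad2 under the floor. The 4 differed in order, with 1 highest in pool 1, 2 in pool 2 and 1 in pool 3. The 3 bipolar markers, all measured, summed to 2361.6, 1577.6 and 2767.3. That sum mainly followed the Pcp2 set, of the r class (1493.1, 848.9 and 2023.1). Prkca was lowest in pool 3 (548.2, 413.2 and 331.7), and Trpm1 was nearly level in pools 1 and 2 (320.3, 315.5 and 412.5). The part of these cells in the Neurod4 signal was not tested.

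The 4 Id genes were above the floor in all pools, and 3 of them were lowest in pool 1. Pool 1 was lowest for 2895 of all 8327 measured probe sets and for 13 of the 50 measured members. Id2, an Id protein that also binds the retinoblastoma protein, had 496.6, 1103.9 and 603.3 in pools 1, 2 and 3. Pool 2 stood apart from the others, with a range of 2.22-fold and an unadjusted p of 0.0279 (limma, adjusted p = 0.832). Id3 had 634.6, 871.9 and 853.2 and Id4 had 650.5, 935.6 and 947.9. Pools 2 and 3 were nearly level for both, and pool 1 lay 1.37-fold and 1.46-fold below the highest (limma, adjusted p = 0.989 and 0.987). Id1 differed from these, at 548.6, 535.8 and 390.6, with pool 3 lowest. Taken as pool 1 minus the other pool, the group's median on the log2 scale was -0.49 against pool 2 and -0.35 against pool 3, a sign opposite to that of the Hes and proneural sets.

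The E proteins Tcf12 and Tcf4 were highest in pool 2. Tcf12, read by an s-class set, had 1089.3, 2221.6 and 1786.8 in pools 1, 2 and 3. Tcf4 had 1524.5, 2632.7 and 1315.4. Pool 1 was lowest for Tcf12 and pool 3 for Tcf4, and both ranges lay at the limit of 2-fold, at 2.04 and 2.00. Unadjusted p was 0.0334 and 0.0321, and neither passed (limma, adjusted p = 0.833 and 0.832). Tcf3, which encodes the E proteins E12 and E47, did not share this pattern, at 338.6, 274.2 and 357.3 with pool 2 lowest.

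The rod markers stand beside the Id2, Id3 and Tcf12 values because they had pool 2 highest and pool 1 lowest too. A match chosen in this way is not a test. All 6 of 6 were measured and had this placing, with summed signals of 60546, 79753.4 and 73277.1 in pools 1, 2 and 3. The placing was not particular to rods. Gad1 and Calb2 of amacrine cells, Gap43 and Stmn2 of ganglion cells and Car2 of Müller glia had it too. Other markers of those cells, such as Slc6a9, Thy1 and Dkk3, did not. The part of rods or other cells in the Id and Tcf12 signals was not tested.

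**Figure D4:**
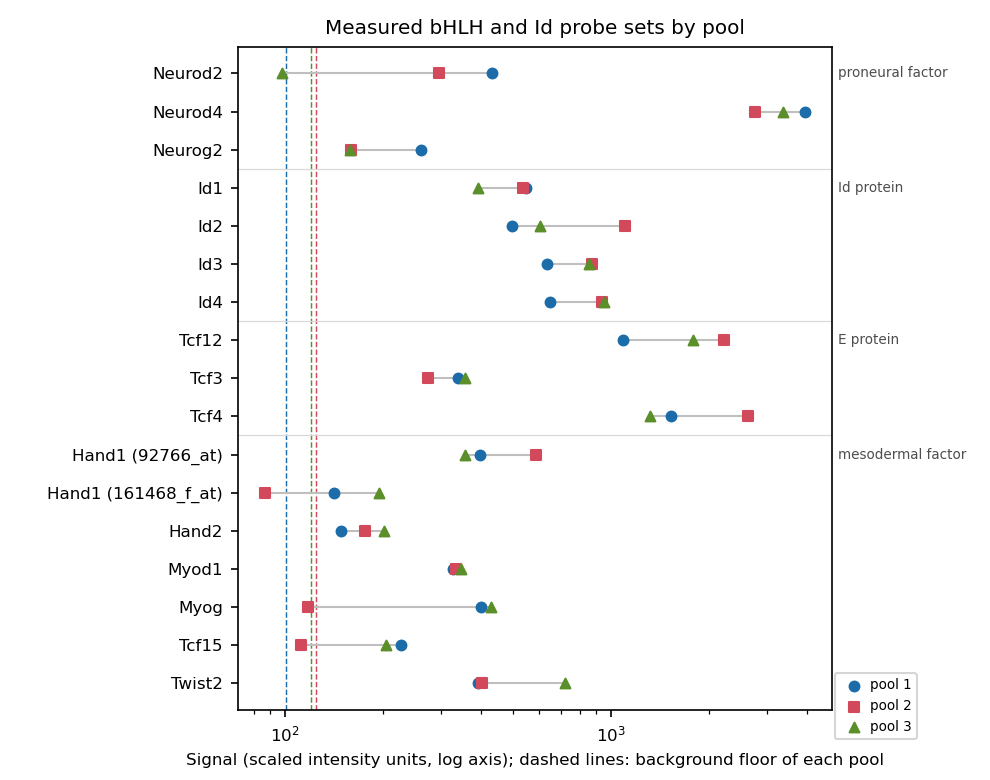
Signal of each measured proneural, Id, E protein and mesodermal probe set in pools 1 (blue circles), 2 (red squares) and 3 (green triangles), on a log axis in scaled intensity units, with each pool's floor dashed. Id2, Tcf12 and Tcf4 have pool 2 at the right, Neurod2 runs from 431.3 in pool 1 to 97.6 in pool 3, and the 3 Myod1 values nearly coincide.

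Several bHLH factors of mesodermal tissues gave signal above the floor. Myod1, which specifies skeletal muscle, was the steadiest of all measured members, at 327, 334.2 and 346.3 in pools 1, 2 and 3, an SD of 9.75 (n = 3). Myog, its partner in muscle differentiation, had 398.1, 117.3 and 427.6, under the floor in pool 2. Pool 3 therefore exceeded pool 2 by at least 3.43-fold (limma, unadjusted p = 0.00913, adjusted p = 0.634). Twist2, a factor of dermal and skull mesenchyme, had 390.8, 400.8 and 721.8, with pool 3 apart from the others (limma, adjusted p = 0.987).

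Hand1, a factor of the heart and placenta, had 395.9, 588.6 and 356.4 by its brighter set, in which pool 2 was highest, and 141.5, 86.5 and 193.8 by the other, of the f class, in which pool 2 was lowest and under the floor. Hand2 was at 148.8, 176.4 and 200.9. Tcf15, known as paraxis, was above the floor in pools 1 and 3 (227.4, 111.7 and 203.9). Twist1, Tal1, which specifies blood, and Tcf21 were under the floor on every array.

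Skeletal muscle markers are set beside Myod1 and Myog. Of 8 such markers 6 were measured, and 3 cleared the floor in every pool, with summed signals of 1283.3, 1047.2 and 1147.9 in pools 1, 2 and 3. The fast troponin genes Tnnt3 and Tnni2 were under the floor in all pools. The markers above the floor in every pool differed in order. Ckm, muscle creatine kinase, had 185.5, 209.3 and 227.2. Myh4, a fast myosin read by an r-class set, had 255.6, 146 and 347.6, the order of Myog. Its pool 2 value was near that pool's floor of 124.8. The calcium pump gene Atp2a1, read by an s-class set, had 147.3, 271.8 and 197.7, with pool 2 highest. Myog followed the order of pools of the lens markers given above, as did 13 of 50 measured members (26%, against 15.7% of all measured probe sets), among them the brighter Notch2 set, Notch3 and both Numb sets. The part of lens or muscle tissue in these signals was not tested.

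Of the 9 measured sets of members taken by name only, 3 ranged over 2-fold. Tcf7l1, an HMG-box partner of beta-catenin in Wnt signalling, was read by 2 probe sets that disagreed. One gave 201.1, 599.8 and 172.8 in pools 1, 2 and 3, with pool 2 highest. The other gave 542.6, 87.4 and 141.7, with pool 2 lowest and under the floor. Its range of at least 4.35-fold was the widest of any measured member (limma, unadjusted p = 0.007, adjusted p = 0.587). This set counts as measured only through pool 1, where it is high, so a wide range follows from the filter for it. The sets placed pool 2 at opposite ends, so no order of pools can be given for this gene.

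Tcf25 was split in the same way, at 788.3, 467.8 and 608.9 by one set and 631.1, 664 and 300.1 by the other. Tcf7l2, the relative of Tcf7l1, had 385.4, 610.4 and 464.1 by a set of the f class and values near the floor by a set of the s class. Jagn1 had 1082.3, 842 and 1280.6, and Tcf20 had 258.6, 205.7 and 164.8. Tcf19 exceeded the floor only in pool 2 (93.9, 178 and 105.6), and Hesx1 on no array.

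By pool, 20 of 50 measured members were highest in pool 1 (40%, against 34.1% of all measured probe sets), 11 in pool 2 (22%, against 33.7%) and 19 in pool 3 (38%, against 32.2%). Pool 2 was lowest for 25 of 50 (50%, against 33.4%). On the log2 scale the members' median was 0.25 for pool 1 less pool 2, where all measured probe sets had -0.01. For pool 1 less pool 3 the medians were -0.02 and -0.01, and for pool 2 less pool 3 they were -0.09 and 0.01. Probe sets of the same gene share their target, so these counts are not of independent genes.

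**Figure D5:**
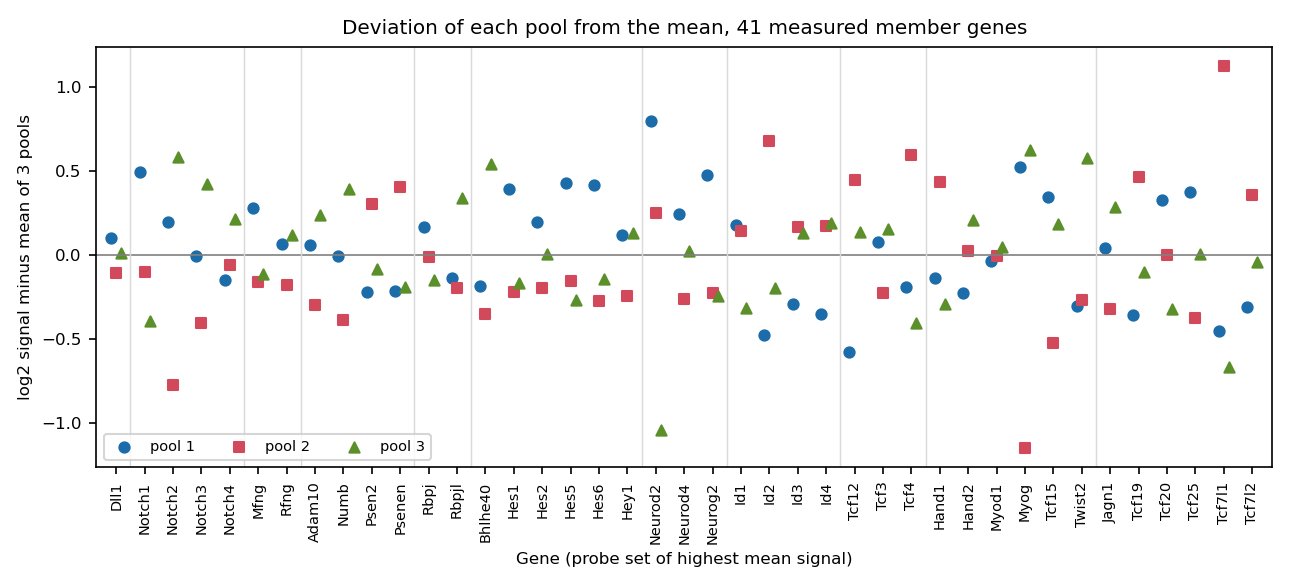
Deviation of each pool's log2 signal from the mean of the 3 pools, for the 41 measured member genes by their brightest probe set, ordered by role with lines between roles (pool 1 blue circles, pool 2 red squares, pool 3 green triangles, values under the floor set to it). Pool 1 lies on top for Notch1, the Hes genes and the proneural factors and at the bottom for Id2, Id3, Id4 and Tcf12.

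The rest of the Notch pathway was read from a list of genes outside the membership rule. Of 32 such genes with a probe set, 29 were measured and 27 were above the floor on all arrays. None passed the test (limma, lowest adjusted p = 0.587). At an unadjusted p under 0.05 there were 2 of 29, against 5.34% of all measured probe sets. The genes named from this list include its 4 of highest mean signal, a choice of what to name and not a ranking of transcript amounts. They were Ctbp2, Tle5 and Ctbp1, which are corepressors or corepressor modulators, and Skp1, a ubiquitin ligase subunit. Ctbp2, whose gene also encodes the synaptic ribbon protein Ribeye, was nearly constant, at 4271.1, 4083.8 and 4113.8 in pools 1, 2 and 3. Tle5 had 4547, 3082.1 and 4420.1 and Ctbp1 had 2802.6, 2655 and 2163.8. Skp1 and the coactivator Crebbp were the genes of this list with a range over 2-fold. Skp1 was lowest in pool 1 (1151.4, 2757.1 and 2371.9) and Crebbp lowest in pool 2 (969.6, 630.1 and 1396.2), with adjusted p of 0.587 and 0.832 (limma). Pool 1 was highest for 16 of 29 genes, against 34.1% of all measured probe sets. The list's median log2 differences were 0.17 (pool 1 over pool 2), 0.11 (pool 1 over pool 3) and 0.04 (pool 2 over pool 3). All measured probe sets had -0.01, -0.01 and 0.01 in the same order.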

How the data were processed

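RNA of 3 pools of neural retina was read on 1-colour oligonucleotide arrays. The authors deposited a table of linear intensity values, with a value for each probe set on each array. How they were computed is not given in the sources used here. Per-array scaling had already been done (means after trimming 2% at each end between 500.25 and 500.26), so no further scaling was applied. Of 12488 probe sets 66 controls were set aside, as was 1 blank row. Symbols came from the platform annotation, which gave a single symbol to 10833 probe sets, and none of the members' symbols differed from the current mouse table (GRCm38.p6). Pool numbers follow accession order and carry no meaning.

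Each signal was raised to its array's floor where it lay below, and converted to log2. Variability was tested with limma 3.58.1 (R 4.3.3), by a model with an intercept alone. An F distribution was fitted robustly to the residual variances with a trend on intensity, giving an upper tail p and Benjamini-Hochberg adjustment over 8327 measured probe sets at a threshold of 0.05. It was tested on simulated data. With 3 arrays in 1 group, their number limits the precision. A gene was represented by its probe set with the highest mean signal, and every member gene is named. Python 3.11.15, pandas 2.3.3, numpy 2.4.6 and matplotlib 3.10.9 were used for the rest. Members, gene lists and roles were chosen with earlier results of these data known. The alternatives tried concerned scaling, floor, filter, variance model, probe set choice and number of pools.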

Additional observations from a re-analysis of the deposited data

How the results depend on the processing

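No measured member was called variable in the main setting or in any of the 12 alternatives, at an adjusted p (limma) of at least 0.0554 over 545 values. That lowest value belonged to the brighter Tcf7l1 set without pool 1. The calls over the whole array were few as well. Leaving out the intensity trend gave 0 of 8327, and averaging each gene's sets gave 0 of 6892. With no call at all, those settings cannot tell members from other genes. The other alternatives called between 4 of 8420 (without pool 3) and 52 of 12422 (no filter on low values). At an unadjusted p under 0.05 the count of members went from 9 to between 3 and 9. The count of members above the floor on all arrays lay between 30 with a fixed floor of 200 and 51 with the floor at the median control, against 40. The median SD lay between 0.269 and 0.376, against 0.346. The count of members with a range over 2-fold moved most: it was 9 in the main setting, 16 of 57 measured members with the floor at the median control (28.1%, against 25.5% of all sets), and 3 of 11 when only the brightest 25% of probe sets entered (27.3%, against 4.83%). Without 1 pool each it lay between 3 and 6, which follows in part from taking the range over fewer pools. In the setting of the brightest 25%, the 3 were Tcf4, Id2 and Tcf12, at the ranges of the main setting. The other sets with a range over 2-fold did not enter it. With the floor at the median control, the f-class Hand1 set went from 1.55-fold to 2.24-fold and Tcf15 from 1.82-fold to 2.04-fold. The cause of the remaining shifts was not tested. Signals near the floor limit what can be read of Notch4, Rbpjl, Bhlhe40 and the dimmer sets. No paired analysis was possible because the arrays form 1 group.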

Other observations

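Other bHLH factors, from a list outside the membership rule, were detected in part: of 43 with a probe set, 29 were measured and 20 were above the floor on all arrays. None passed the test (limma, lowest adjusted p = 0.652), with 2 of 29 at an unadjusted p under 0.05, against 5.34% of all measured probe sets. Hif1a, the oxygen-sensing factor, was highest in pool 3 by a set of the f class, at 12377.1, 12737.8 and 16567.9 in pools 1, 2 and 3. Srebf1, which drives lipid synthesis, had 2154.7, 1488.2 and 1846.7, the clock factor Arntl had 1855.4, 1416.3 and 1630.1, and Mxi1, an antagonist of Myc, had 1434.4, 1473.4 and 1793.3.

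A range over 2-fold was found for 10 of the 29, beside 13.2% of all measured probe sets. Mesp2 and Mxd3 count as measured only through the pool where they are high, so a wide range follows from the filter for them. Usf1, a widely expressed E-box binder, was lowest in pool 1 (783.2, 1647.4 and 1363.1), with pool 2 highest as it was for Tcf12 (limma, adjusted p = 0.832). Mnt, another Myc antagonist, was highest in pool 1 (428.6, 278.7 and 168.3). Ncoa2 (413.9, 223.7 and 498.6) and Arnt (281.5, 150.1 and 316) were lowest in pool 2, and Ebf2 was highest in pool 3 (134.9, 164.3 and 330.6). Mesp2, a factor of somite formation, exceeded its floor only in pool 3, at 67, 7.8 and 400.4 (limma, adjusted p = 0.652), and Mxd3 in pool 1 alone, at 264, 83.7 and 75.8. Msc (256.3, 116.8 and 158.6), Scx (168.5, 250.8 and 109.5) and Arnt2 (69.1, 190.6 and 229.3) were above the floor in 2 pools each. Adjusted p was 0.986 or more for the 8 genes of this group other than Usf1 and Mesp2 (limma).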
